A study of Oryza sativa with 14 samples.

Results

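Cytosolic ribosomal proteins of rice leaves were described across 14 RNA-seq libraries of the japonica cultivar 'Koshihikari'. Members were the genes whose description in the deposited tables names a 40S ribosomal, 60S ribosomal or 60S acidic ribosomal protein and no chloroplast, plastid, mitochondrion or kinase. The rule found 166 of 37727 genes, of which 69 belong to the small (40S) subunit and 95 to the large (60S) subunit. The other 2 are not ribosomal proteins but factors that build the large subunit, the nucleolar GTPase Nug2 (Os03g0352400) and the export adaptor NMD3 (Os10g0573900), and they are counted separately. The 164 ribosomal protein genes carry 64 protein names, 24 of the small and 40 of the large subunit, and 50 of these names are held by at least 2 genes. InterPro entries in the tables name a ribosomal protein family or the expected assembly factor for 160 of the 166 members, and 6 have no such entry. The names used here are those of the descriptions, and the universal family name from InterPro is given for some of the genes. Os01g0723200, Os02g0229000 and Os06g0555400 are described as S19-like but placed in family eS24, and they are counted under the name S19.

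The plants were wild type and had been raised in nursery trays on a fertilized field before they were moved to paddies. Chemical fertilizer (CF) plots were dressed with N, PO4, K, Mg and SiO2 at 56, 176, 56, 90 and 120 kg per hectare, in that order, and green manure (GM) plots received no chemical fertilizer but hairy vetch, a legume cover crop that was ploughed in. In 2023 the largest leaf of 4 plants per treatment was taken at 47 days after transplanting, from GM plots sown with 30 kg of vetch seed per hectare. In 2024 it was taken from 3 plants per treatment at 38 days, from GM plots sown with 60 kg per hectare. How many plots stood behind the leaves is not said in the labels, and p-values cover the spread between leaves, and year cannot be told apart from plant age, season, table or, under GM, the vetch seed rate.

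The eukaryotic ribosome is made of a small subunit that binds and decodes the messenger RNA and a large subunit that joins amino acids. In plants nearly every ribosomal protein is encoded by a small family of genes whose products can be alike or diverged, and making ribosomes takes a large share of a growing cell's nitrogen, phosphorus and energy. Assembly starts in the nucleolus, where RNA polymerase I makes the ribosomal RNA and biogenesis factors fold and trim it while the proteins are added. In many plants the TOR kinase links these genes to nutrient supply.

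Total counts ranged from 8161851 to 11375515 reads per library in 2023 and from 13224671 to 23367369 in 2024. Of the 166 members, 148 had enough reads to be tested in each comparison, 62 small subunit genes, 84 large subunit genes and both assembly factors. Of the other 18, 13 had 0 reads in all 14 libraries and 5 had between 3 and 68 reads in all. Among the genes at 0 are 4 neighbouring copies of L44 (Os07g0523100, Os07g0523300, Os07g0523500 and Os07g0523700), 1 copy of S18 (Os07g0173700) and 2 copies of S23 (Os10g0350001 and Os10g0350450). The tables hold uniquely assigned reads, so a gene with near-identical copies can be listed at 0 or low although it is transcribed, and values of single family members are uncertain to that extent. The digits after Os in a locus identifier give its chromosome. Levels below are CPM, counts scaled to a common library size with TMM over all 14 libraries. They are not divided by gene length, so they are compared between groups and not between genes.

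Leaf markers were high in all libraries, with a summed level of RBCS, CAB2R and PSBO between 6963 and 76550 CPM. Of 3 root markers, Lsi2 and NRT2.1 were at 0 reads and Lsi1 lay between 7.98 and 34.4 CPM. Of 8 markers of meristem and dividing cells, the homeobox gene OSH1 was at 0 reads, and the summed level of the list lay between 59.8 and 76.96 CPM. In whole leaves, fewer cells of a type and less RNA per cell cannot be told apart.

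The members together took a small and variable share of the counted reads. In CF 2023 the share was 0.635%, 0.531%, 0.668% and 0.695% in replicates 1 to 4, and in GM 2023 it was 0.732%, 0.607%, 0.601% and 0.616%. In CF 2024 it was 0.455%, 0.276% and 0.383% in replicates 1 to 3, and in GM 2024 it was 0.464%, 0.319% and 0.369%. Every 2024 library lay below every 2023 library on this scale, and CF and GM overlapped within each year. On the TMM scale the summed level was 5198 ± 798 CPM in CF 2023, 5957 ± 504 in GM 2023 (SD, n = 4 each), 4112 ± 953 in CF 2024 and 4943 ± 561 in GM 2024 (SD, n = 3 each). On that scale the years overlapped, because TMM factors were between 0.713 and 0.914 in 2024 and between 0.965 and 1.27 in 2023.

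**Figure D1:**
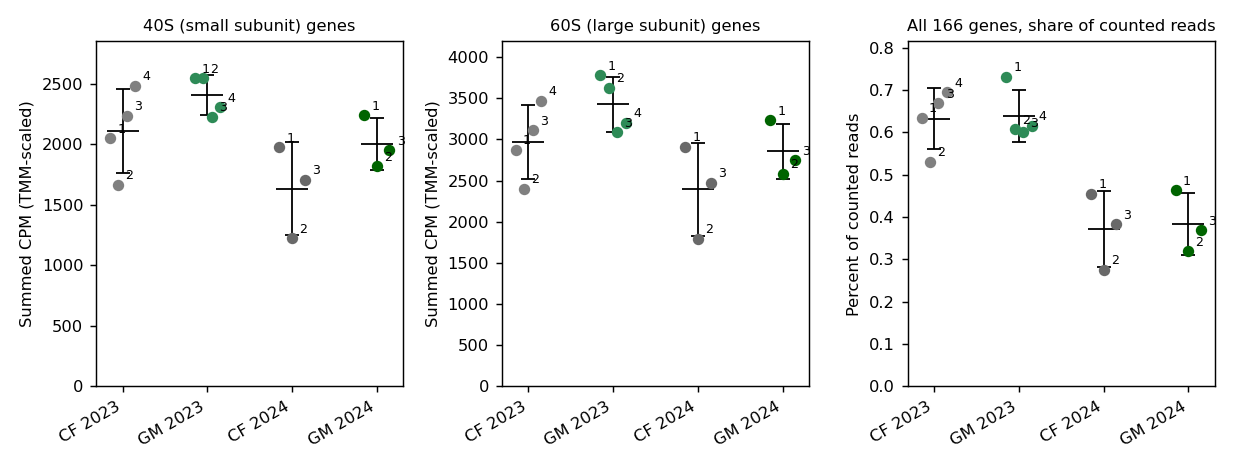
Summed level of the 40S and 60S genes in TMM-scaled CPM (left and middle) and share of counted reads of all 166 members in percent (right), by treatment and year. Points are libraries with their replicate number and bars are mean ± SD; replicate 2 of each CF group is the lowest of its year in summed level, and the share of reads is lower in every 2024 library than in every 2023 library.

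The balance between the subunits varied little. The summed level of small subunit genes divided by that of large subunit genes lay between 0.673 and 0.721 over all 14 libraries. The lowest ratio was in GM 2023 replicate 1 and the highest in GM 2023 replicate 3, so its range within 1 group was as wide as over the series. Small subunit genes summed to 2107 ± 345 CPM in CF 2023, 2405 ± 165 in GM 2023, 1634 ± 381 in CF 2024 and 2002 ± 214 in GM 2024. Large subunit genes summed to 2965 ± 449, 3426 ± 331, 2394 ± 563 and 2856 ± 336 CPM in the same order.

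The main variation was shared by nearly all members and separated single libraries. In CF 2023 replicate 2, 140 of 148 tested members lay below their mean over the 8 libraries of that year, with a median deviation of -0.40 on the log2(CPM + 1) scale. In CF 2024 replicate 2, 144 of 148 lay below their mean over the 6 libraries of that year, with a median of -0.48. In CF 2024 replicate 1, which belongs to the same group, only 17 lay below it, and in GM 2024 replicate 1 only 10. The median deviation over all 18227 genes tested in both years was 0.01 in CF 2023 replicate 2 and -0.00 in CF 2024 replicate 2. The same CF libraries were also low for 22 and 31 of 33 ribosome biogenesis genes and for 40 and 46 of 55 translation factors, with smaller median deviations of -0.14 and -0.24 for biogenesis and -0.09 and -0.15 for translation factors. The 3 leaf mesophyll markers had negative median deviations in every CF library, from -1.11 in replicate 2 to -0.15 in replicate 4 in 2023. In 2024 they were at -0.55, -0.41 and -0.41 in CF replicates 1 to 3, so they were not lowest in replicate 2, and in CF 2024 replicate 1 they were low while the members had a median deviation of 0.17. Their part in the result was not tested.

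**Figure D2:**
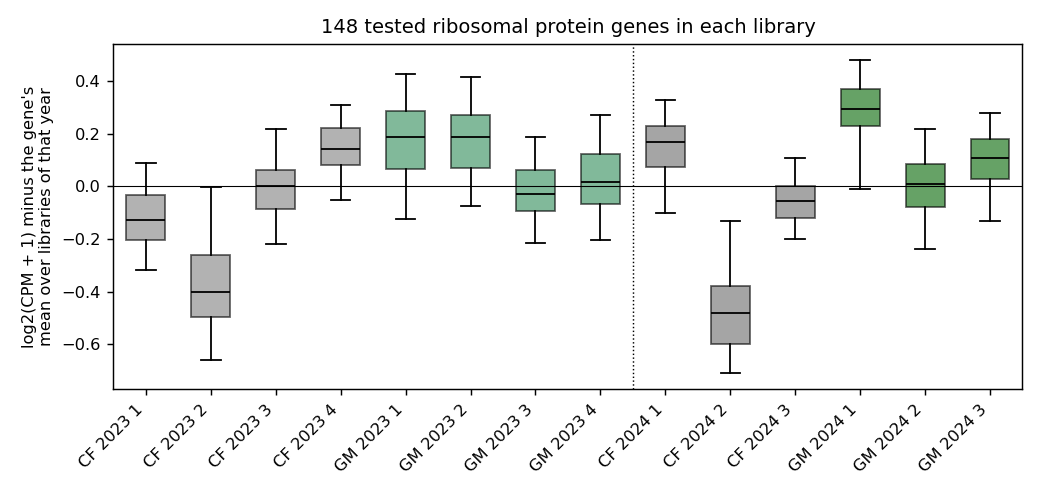
Deviation of each of 148 tested members from its mean over the libraries of the same year, in log2(CPM + 1), per library. Boxes span the quartiles with the median as a line and whiskers the 5th to 95th percentile; CF 2023 replicate 2 and CF 2024 replicate 2 lie lowest, with medians of -0.40 and -0.48.

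The first comparison asks whether leaves grown on green manure hold other levels of ribosomal protein transcripts than leaves grown on chemical fertilizer. In neither year did any member pass the test, and most members were slightly higher under GM, by a median of 0.19 on the log2 scale in 2023 and 0.27 in 2024. At a Benjamini-Hochberg adjusted p under 0.05 from edgeR's quasi-likelihood test, 0 of 148 members were called in 2023, where 2.48% of all genes tested were called. In 2024, 0 of 148 were called, where 3.25% of all genes were called. At an unadjusted p under 0.05 there were 23 members in 2023, which is 15.5% of them and 15.5% of all genes, and 21 in 2024, which is 14.2% of them against 17.1% of all genes. All of these members were higher under GM. At an adjusted p under 0.1 in edgeR there were 0 members in 2023, where 4.53% of all genes were called, and 1 in 2024, where 6.06% were. DESeq2 called 0 members in 2023, against 4.49% of all genes, and 1 in 2024, against 4.79%. The member called in 2024 was L31 in both cases. With the replicate number added to the fit as a block, edgeR called 21 of 148 members in 2024, beside 1616 of 19261 genes. All 21 were higher under GM, and the labels do not say whether replicate numbers pair the libraries.

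Cell type markers moved with the treatment as well. All 3 leaf mesophyll markers were above 0 under GM in both years, with a median log2 fold change of 1.11 in 2023 and 0.92 in 2024. The light-harvesting gene CAB2R (Os01g0600900) was called higher by 1.93 ± 0.27 in 2023 and 1.45 ± 0.22 in 2024, and the photosystem II gene PSBO (Os01g0501800) by 1.11 ± 0.21 and 0.92 ± 0.14, with edgeR adjusted p between 0.00336 and 0.0142. Their summed level with RBCS was 6963 to 15370 CPM in CF 2023 and 16300 to 36630 in GM 2023, and 29160 to 34850 in CF 2024 and 42330 to 76550 in GM 2024, so the treatments did not overlap in either year. Of the tested markers of meristem and dividing cells 0 of 4 were called in 2023 and 0 of 5 in 2024. Of genes whose description names a histone, 18 of 36 were above 0 in 2023 and 13 of 42 in 2024. In each year 1 was called higher, or 2.78% and 2.38% beside 2.48% and 3.25% of all genes. In 2023 it was no histone but an S-adenosyl-L-methionine synthetase (Os01g0323600), and in 2024 a histone H4 gene (Os07g0549900). The root marker Lsi1 was above 0 by 0.89 ± 0.22 and 0.39 ± 0.13, uncalled. The part of these markers in the shift of the members was not tested.

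The direction was shared more widely than the calls. In 2023, 131 of 148 members had a fold change above 0, or 88.5% against 49.8% of all genes, and in 2024, 136 had, or 91.9% against 49.1%. The median over all genes tested was -0.00 in both years. The direction was not particular to the members. Other genes described as ribosomal proteins, listed further below, also lay mostly above 0, except the mitochondrial ones in 2024. Their medians were smaller than those of the members. Small subunit genes had medians of 0.18 in 2023, with 59 of 62 above 0, and 0.30 in 2024, with 57 of 62 above 0. Large subunit genes had medians of 0.21, with 71 of 84 above 0, and 0.23, with 78 of 84 above 0. When members with the same protein name were summed, GM was above CF in 61 of 63 names in 2023 and in all 63 in 2024; the names below CF in 2023 were the stalk protein P2 and SA.

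These medians rest on few libraries. Without CF 2023 replicate 2 the 2023 median was 0.10 with 117 members above 0, and without CF 2023 replicate 4 it was 0.29. Without GM 2023 replicates 1 and 2 together it was 0.09. Without CF 2024 replicate 2 the 2024 median was 0.09 with 113 members above 0, without CF 2024 replicate 1 it was 0.41, and without GM 2024 replicate 1 it was 0.17. The median was above 0 in each of these fits. When counts were scaled by plain library totals instead, the medians were 0.02 in 2023 and 0.06 in 2024, while the median of all genes shifted to -0.18 and -0.21.

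The groups overlapped for nearly all members in 2023. All 4 GM libraries lay above all 4 CF libraries for 2 members, or 1.35% against 5.35% of all genes, and below them for 0, against 4.61% of all genes. In 2024 all 3 GM libraries lay above all 3 CF libraries for 18 members, or 12.2% against 11.8% of all genes, and below them for 1, against 10.9%. The standard error of a fold change had a median of 0.14 over members in 2023 and 0.18 in 2024, beside median fold changes of 0.19 and 0.27.

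Among large subunit genes, L35 (Os02g0503400), a protein at the mouth of the tunnel through which the new chain leaves, had the smallest adjusted p in 2023. Its level in CF 2023 was 31.6, 30.0, 34.4 and 43.0 CPM, and in GM 2023 it was 53.9, 50.4, 38.4 and 43.5 CPM. Replicates 1 and 2 of GM were highest and CF replicate 4 lay among the GM values, so the groups overlapped. The log2 fold change was 0.42 ± 0.13 (SE) with an adjusted p of 0.111, which passed the threshold only when CF replicate 4 was left out. In 2024 it was 0.22 ± 0.18 with an adjusted p of 0.584.

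L31 (Os02g0717800), by its description another protein near the tunnel exit, had the smallest adjusted p of 2024. It is among the members without an InterPro family, and it was picked out after its values were seen. Its level in CF 2024 was 35.8, 24.6 and 34.5 CPM, and in GM 2024 it was 45.6, 41.0 and 45.2 CPM. The groups did not overlap, and CF replicate 2 was the lowest. The log2 fold change was 0.46 ± 0.13 with an adjusted p of 0.0846 in edgeR, 0.0485 in DESeq2 and 0.0277 without the low-count filter. In 2023 its level was 36.2, 25.6, 33.8 and 43.4 CPM under CF and 41.0, 45.4, 38.3 and 36.7 CPM under GM, and the log2 fold change was 0.21 ± 0.14 with an adjusted p of 0.504.

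Among members at a mean of at least 5 CPM, those with the largest fold changes differed between years. In 2023 they were S29 (Os12g0508300), a zinc-binding protein of the small subunit head, at 0.49 ± 0.21, L28 (Os05g0541900), a protein found only in eukaryotic ribosomes, at 0.43 ± 0.14, L35 and L9 (Os09g0485900) at 0.41 ± 0.18. In 2024 these had 0.19 ± 0.16, 0.17 ± 0.17, 0.22 ± 0.18 and 0.34 ± 0.25. In 2024 the largest were S17 (Os03g0109500) at 0.60 ± 0.20, L34 (Os08g0156800) at 0.54 ± 0.19, S9 (Os11g0602500), which helps form the channel where messenger RNA enters, at 0.51 ± 0.29, and L35a (Os05g0555800) at 0.51 ± 0.21. In 2023 these had 0.12 ± 0.20, 0.08 ± 0.15, 0.10 ± 0.15 and 0.05 ± 0.23. In the fit of all libraries of a year without a block none of the 8 passed, with adjusted p between 0.111 and 0.948. The lowest in 2023 were P2 (Os01g0231700), L18a (Os01g0667100), L13a (Os11g0425800) and S13 (Os02g0677800), at -0.17 to -0.15. In 2024 they were L18a (Os01g0242900) at -0.42, the same L13a and L18a (Os01g0667100) genes at -0.15, and NMD3 at -0.10. None of these was called. Across the 148 members the fold changes of the years, which share no library, had a Pearson r of 0.27 and a Spearman rho of 0.13, given as a description because members share libraries and families.

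**Figure D3:**
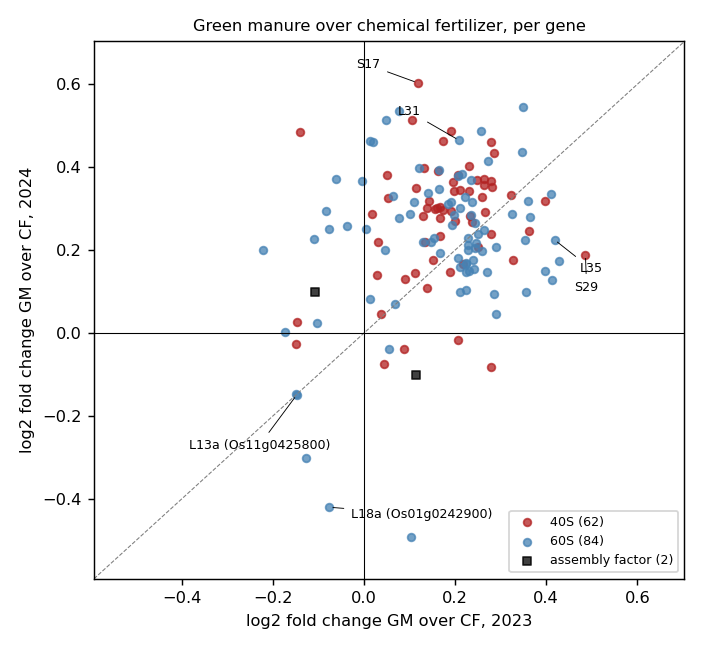
Log2 fold change GM over CF of 148 members in 2023 (horizontal) and 2024 (vertical), 40S genes in red, 60S genes in blue and assembly factors as black squares, with the line of equal values dashed. Most points lie in the upper right quadrant, where 124 members are above 0 in both years, but they do not follow the dashed line, with r = 0.27.

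Next are the 5 members nearest to the threshold in both years, taken only among members with the same direction in both. That the years agree for them was thus a condition of the choice. All 5 were higher under GM, as were all members with an unadjusted p under 0.05. L30 (Os05g0490100), which in yeast also binds and limits its own transcript, was at 36.4, 25.3, 38.5 and 43.5 CPM in CF 2023 and 51.2, 47.2, 40.7 and 44.0 CPM in GM 2023. In 2024 it was at 36.6, 22.2 and 30.3 CPM under CF and 41.2, 36.5 and 43.3 CPM under GM. CF replicate 2 was the lowest in both years, and the highest CF library overlapped the GM range each time. The log2 fold changes were 0.35 ± 0.14 and 0.44 ± 0.16, with adjusted p of 0.244 and 0.186. The gene described as L17 (Os10g0466700), which InterPro places in family uL14, had 0.36 ± 0.13 and 0.32 ± 0.14. S10 (Os04g0430100), a protein beside the messenger RNA entry, had 0.27 ± 0.12 and 0.29 ± 0.13, and its 2024 groups did not overlap. S14 (Os02g0534800) had 0.26 ± 0.13 and 0.33 ± 0.14, and S29 (Os11g0634500) had 0.29 ± 0.14 and 0.43 ± 0.20. Adjusted p of these last 4 genes ranged from 0.193 to 0.358.

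The small subunit genes with most reads followed the same pattern. S8 (Os04g0349500) was at 112 ± 19.2 CPM in CF 2023, 137 ± 15.1 in GM 2023, 89.8 ± 20.8 in CF 2024 and 115 ± 16.7 in GM 2024, S2 (Os03g0807800) at 101 ± 19.0, 123 ± 7.97, 80.8 ± 23.3 and 105 ± 9.54, and S5 (Os11g0482000), which lies where messenger RNA leaves, at 69.6 ± 12.9, 77.2 ± 5.90, 54.9 ± 15.6 and 68.8 ± 6.36. Of the large subunit, L10 (Os05g0169100) had most reads, at 202 ± 19.5, 240 ± 29.5, 188 ± 30.7 and 211 ± 28.7 CPM in the same order. L2 (Os12g0567700), which lies by the site of peptide bond formation, was at 126 ± 20.2, 148 ± 24.9, 103 ± 26.9 and 117 ± 18.9 CPM. L5 (Os01g0896700), which carries the 5S ribosomal RNA, was at 116 ± 13.1, 130 ± 5.77, 90.4 ± 22.3 and 119 ± 17.7 CPM. All 6 were higher on average under GM in both years, with overlapping groups and adjusted p between 0.284 and 0.743.

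Proteins known for roles in translation control or signalling did not pass either. L10 is placed late in assembly and in Arabidopsis is a target of a receptor kinase in antiviral defence; its second gene (Os11g0220800) was at 55.1, 46.9, 56.5 and 64.8 CPM in CF 2023 and 45.7, 51.6, 56.1 and 58.2 CPM in GM 2023. It was at 53.4, 35.2 and 44.4 CPM in CF 2024 and 58.9, 51.9 and 53.1 CPM in GM 2024. Its groups overlapped in both years, with log2 fold changes of -0.08 ± 0.11 and 0.29 ± 0.13 and adjusted p of 0.781 and 0.294. L24, needed in Arabidopsis for reinitiation after upstream reading frames, had fold changes of 0.15 ± 0.13 and 0.23 ± 0.17 in Os01g0815800 and 0.00 ± 0.18 and 0.25 ± 0.18 in Os07g0224000. The acidic proteins form the stalk that recruits elongation factors, and P3 is found only in plants. P1 (Os08g0116500) had 0.27 ± 0.12 and 0.15 ± 0.14, P3 (Os06g0701400) had 0.19 ± 0.12 and 0.26 ± 0.15, and P2 (Os01g0231700) had -0.17 ± 0.15 and 0.00 ± 0.16. Adjusted p of the L24 and stalk genes ranged from 0.298 to 0.997. S6, S27a and P0 are not described in the words of the rule and have no member.

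Whether the treatment difference changed between years was tested as an interaction in 1 fit of all 14 libraries. No member was called, where 0.0101% of all genes were called, and DESeq2 called 0 members too, where it called 0.0707% of all genes. At an unadjusted p under 0.05 there was 1 member, or 0.676% against 6.32% of all genes. It was SA (Os07g0616600), a small subunit protein related to the laminin receptor, picked out after its values were seen. Its level was 29.8, 21.9, 31.8 and 31.4 CPM in CF 2023 and 28.5, 23.9, 26.9 and 25.3 CPM in GM 2023. In 2024 it was 23.9, 12.9 and 18.7 CPM in CF and 25.8, 26.7 and 25.5 CPM in GM. The treatments overlapped in 2023, and in 2024 all GM libraries were above all CF libraries. The difference of log2 fold changes was 0.63 ± 0.23 with an adjusted p of 0.678.

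The second comparison sets 2024 against 2023 within each treatment. Members were mostly lower in 2024, and every member that passed was lower. Within CF 53 of 148 were called, or 35.8%, where 39.9% of all genes were called and 20.4% were called lower. Within GM 28 were called, or 18.9%, where 37.8% of all genes were called and 19.1% were called lower, so under GM the share of members called lower was near that of all genes. The median log2 fold change was -0.35 within CF and -0.26 within GM, beside -0.05 over all genes in each. Within CF 136 members were below 0, or 91.9% against 53.6% of all genes, and within GM 125 were, or 84.5% against 54.0%. Of the members called, 26 were called under both treatments, which is 49.1% of those of CF and 92.9% of those of GM. That the decline differed between treatments is not shown, since the interaction called no member.

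Some cell type markers also differed between the years. Of 6 tested markers of meristem and dividing cells 1 was called in each treatment. That is 16.7% of them, beside 39.9% of all genes within CF and 37.8% within GM. It was the sliding clamp of DNA replication, PCNA (Os02g0805200). PCNA was lower in 2024 by -0.62 ± 0.17 within CF (edgeR adjusted p = 0.00719) and by -0.57 ± 0.18 within GM (edgeR adjusted p = 0.0149). In each treatment 2 of the 6 markers were above 0, uncalled. Of 42 tested genes whose description names a histone, 10 were called higher and 1 lower within CF, and 6 higher and 3 lower within GM. That is 26.2% and 21.4% of them, below the 39.9% and 37.8% of all genes called. The words of this list also match a gene that is no histone, an S-adenosyl-L-methionine synthetase (Os01g0323600). Leaf mesophyll markers moved against the members, with 3 of 3 called higher in 2024 within CF and 2 of 3 within GM, at medians of 1.15 and 0.96, and the root marker Lsi1 was called higher within CF. The part of these markers in the decline of the members was not tested.

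By subunit, 28 of 62 small and 23 of 84 large subunit genes were called lower within CF, or 45.2% and 27.4% beside 20.4% of all genes. Within GM 12 of 62 and 14 of 84 were, or 19.4% and 16.7%, near the 19.1% of all genes. A difference between the subunits was not tested. Both assembly factors were lower in each, Nug2 by a log2 fold change of -0.67 ± 0.10 within CF and -0.46 ± 0.10 within GM, and NMD3 by -0.46 ± 0.13 and -0.67 ± 0.14. All 3 genes of S7 and of the large subunit name L17, all 4 tested genes of S4 and both genes of S15a and S16 were called within CF. Of 48 protein names with at least 2 tested genes, all tested genes were called within CF for 5, some for 26 and none for 17. Within GM these counts were 1, 19 and 28. The median over small subunit genes was -0.43 within CF and -0.28 within GM, and over large subunit genes -0.30 and -0.23.

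These counts moved with single libraries and with the scaling. Within CF, 13 of 149 members were called without CF 2024 replicate 2, 12 lower and L26 (Os01g0140500) higher, with a median of -0.16. In that fit 2696 of 20054 genes were called lower, a larger share than among the members. There were 26 members called without CF 2023 replicate 4, all lower, beside 3656 of 19901 genes called lower. Without CF 2024 replicate 3 there were 33, beside 2889 of 20071 genes, and without CF 2024 replicate 1 there were 77, beside 3185 of 20049 genes. Within GM, 12 of 149 members were called without GM 2024 replicate 2, all lower, with a median of -0.17, beside 2526 of 20070 genes called lower. There were 16 without GM 2024 replicate 3, beside 2549 of 20070 genes. Without GM 2023 replicates 1 and 2 together there were 11, with a median of -0.11, beside 3005 of 20319 genes. In each of these GM fits the share called lower was smaller among members than among all genes. With plain library totals 129 and 125 of 148 members were called lower, beside 9994 and 10384 of 19805 genes. The medians were -0.78 and -0.72, while the medians of all genes moved to -0.49 and -0.52. Relative to all genes the medians were then -0.29 and -0.20, against -0.30 and -0.21 with TMM.

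**Figure D4:**
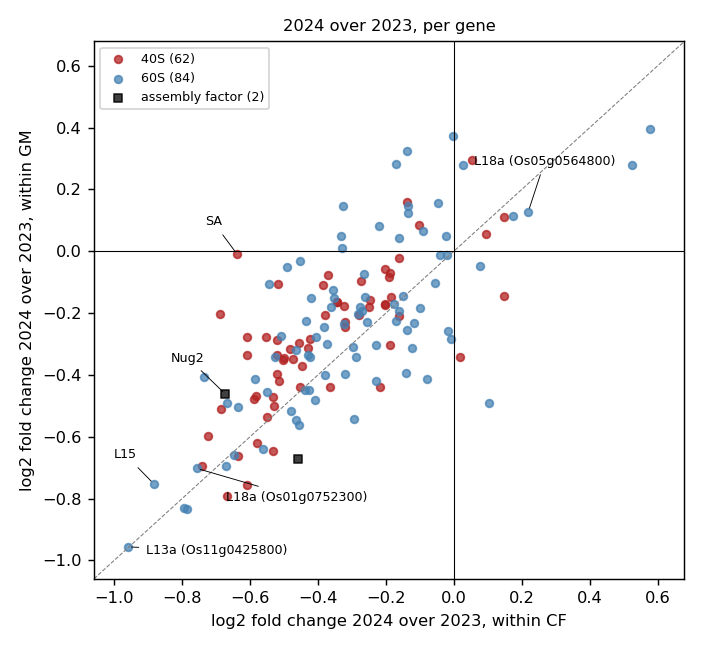
Log2 fold change 2024 over 2023 of 148 members within CF (horizontal) and within GM (vertical), coloured by subunit as before, with the line of equal values dashed. Most points lie in the lower left quadrant, with 121 members below 0 under both treatments and r = 0.74, and L13a (Os11g0425800) is the lowest of all.

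L13a showed the largest decline and in only 1 of its 2 genes. Os11g0425800 was at 28.9, 25.7, 29.02 and 30.7 CPM in CF 2023 and 24.9, 25.0, 26.2 and 27.6 CPM in GM 2023. In 2024 it was at 16.9, 12.5 and 14.7 CPM in CF and 13.7, 12.95 and 13.4 CPM in GM. All 2024 libraries lay far below all 2023 libraries, and CF replicate 2 of 2023, low for most members, was close to its group here. The log2 fold change was -0.96 ± 0.11 within CF (adjusted p = 1.53e-06) and -0.96 ± 0.12 within GM (adjusted p = 2.34e-06), and the call was kept in all 14 fits that left out 1 library. Its treatment fold changes GM over CF were -0.15 ± 0.10 in 2023 and -0.15 ± 0.14 in 2024, uncalled. The other L13a gene (Os03g0756000) was at 77.4 ± 9.29 CPM in CF 2023, 91.1 ± 7.44 in GM 2023, 69.8 ± 15.4 in CF 2024 and 82.2 ± 13.97 in GM 2024. Its year fold changes were -0.15 ± 0.14 in each treatment with adjusted p of 0.413 and 0.432; the difference between the 2 genes was not tested.

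The next largest declines were in genes of low level. Declines nearly as large were also called at higher level, in L18a (Os01g0752300, mean 24.3 CPM) and S19 (Os01g0723200, mean 22.0 CPM). They were -0.76 ± 0.14 and -0.74 ± 0.13 within CF, and -0.70 ± 0.14 and -0.70 ± 0.13 within GM. L11 (Os06g0550000), which travels with L5 and the 5S ribosomal RNA, was at 10.4, 11.2, 11.3 and 12.1 CPM in CF 2023 and 15.6, 14.9, 13.3 and 12.6 CPM in GM 2023, and at 8.54, 3.94 and 6.96 CPM in CF 2024 and 9.72, 6.69 and 7.21 CPM in GM 2024. The years did not overlap in either treatment, and in 2023 all GM libraries were above all CF libraries. Its year fold changes were -0.80 ± 0.20 and -0.83 ± 0.20, with adjusted p of 0.00337 and 0.0024. The gene described as L15 (Os06g0308200) had -0.88 ± 0.22 and -0.75 ± 0.22, with adjusted p of 0.00306 and 0.0117. L44 (Os07g0450000), 1 of 6 L44 genes of which 4 were at 0, had -0.79 ± 0.21 and -0.84 ± 0.21, with adjusted p of 0.00574 and 0.00405. S20 (Os03g0249400) had -0.67 ± 0.22 and -0.79 ± 0.23, with adjusted p of 0.0221 and 0.00992. The call of L44 within CF was lost without CF 2024 replicate 2, and that of S20 within GM without GM 2024 replicate 2, with adjusted p of 0.0537 and 0.0618, and that of L44 within GM without GM 2023 replicates 1 and 2 together.

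Families differed in how alike their genes were. The treatment fold change, averaged over both years, spread most among the genes of L18a, by 0.52, then of L13a by 0.38, S11 by 0.33 and S13 by 0.29, among 48 names with at least 2 tested genes at a mean of 5 CPM or more. Within S15a, L44 and S3a the genes lay within 0.01 of each other. These spreads lie within a few standard errors of the single genes and were not tested.

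The L18a name holds genes of different families. Os01g0752300 and Os05g0565000 are placed by InterPro in family eL20, the L18a protein of the large subunit, while Os01g0242900, Os01g0667100 and Os05g0564800 are placed in an L18a-like family and only share the description. Os05g0565000 was at 35.1 ± 5.76 CPM in CF 2023, 41.5 ± 6.89 in GM 2023, 26.2 ± 4.59 in CF 2024 and 32.7 ± 2.78 in GM 2024, and Os01g0752300 at 26.8 ± 2.99, 31.7 ± 4.43, 15.9 ± 3.12 and 19.5 ± 1.80. Both had the pattern of most members, higher under GM by 0.24 and 0.24 in 2023 and 0.32 and 0.29 in 2024, without passing. Both were called lower in 2024 within CF, by -0.42 ± 0.15 and -0.76 ± 0.14. Within GM Os01g0752300 was called lower too, by -0.70 ± 0.14 (edgeR adjusted p = 0.00057), and Os05g0565000 was not called.

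None of the 3 L18a-like genes was called in any comparison. Os01g0242900 was at 6.54, 7.42, 6.33 and 5.13 CPM in CF 2023 and 5.44, 5.97, 8.27 and 4.49 CPM in GM 2023, and at 4.34, 7.21 and 6.44 CPM in CF 2024 and 4.60, 5.09 and 3.98 CPM in GM 2024. Os01g0667100 was at 8.15, 12.3, 9.14 and 8.43 CPM in CF 2023 and 8.32, 9.36, 7.82 and 8.87 CPM in GM 2023, and at 10.4, 8.81 and 8.92 CPM in CF 2024 and 8.68, 10.8 and 6.23 CPM in GM 2024. Os05g0564800 was at 10.1, 9.46, 11.3 and 8.52 CPM in CF 2023 and 9.02, 12.7, 11.4 and 8.05 CPM in GM 2023, and at 9.93, 13.3 and 11.1 CPM in CF 2024 and 11.1, 10.7 and 11.8 CPM in GM 2024. Replicate 2 of CF, the lowest library for most members, was the highest CF library for Os01g0242900 in both years, for Os01g0667100 in 2023 and for Os05g0564800 in 2024. Their treatment fold changes lay between -0.42 and 0.06 and their year fold changes between -0.41 and 0.22, with adjusted p between 0.156 and 0.966, and treatments overlapped in both years.

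S11 (InterPro family uS17) and S13 (uS15) both bind the small subunit RNA early in assembly. They were chosen for the wide spread of their treatment fold changes, so a gene unlike the others was given by the choice. The differences between their genes were not tested. S11 gene Os04g0502300 had treatment fold changes of 0.04 ± 0.13 and 0.05 ± 0.19, beside 0.28 ± 0.15 and 0.46 ± 0.21 in Os07g0565100, 0.32 ± 0.13 and 0.33 ± 0.18 in Os07g0565000, and 0.13 ± 0.13 and 0.28 ± 0.13 in Os04g0613600. All 4 were called lower in 2024 within CF, by -0.45 to -0.55. S13 gene Os02g0677800 was at 51.6, 55.1, 53.1 and 53.5 CPM in CF 2023 and 56.3, 43.0, 45.7 and 48.2 CPM in GM 2023, and at 44.2, 42.0 and 39.9 CPM in CF 2024 and 42.3, 44.3 and 42.9 CPM in GM 2024. It was not low in replicate 2 of either CF group, and it was lower in 2024 within CF by -0.34 ± 0.10 (adjusted p = 0.00709). Its treatment fold changes were -0.15 ± 0.10 in 2023 and 0.03 ± 0.09 in 2024, uncalled. The S13 genes Os08g0117300, Os08g0117200 and Os07g0572900 had year fold changes within CF of -0.32 ± 0.15, 0.02 ± 0.17 and -0.10 ± 0.19, none called. In the same order their treatment fold changes were 0.16 ± 0.12, 0.28 ± 0.13 and 0.03 ± 0.19 in 2023. In 2024 they were 0.30 ± 0.18, -0.08 ± 0.21 and 0.22 ± 0.19, none called.

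**Figure D5:**
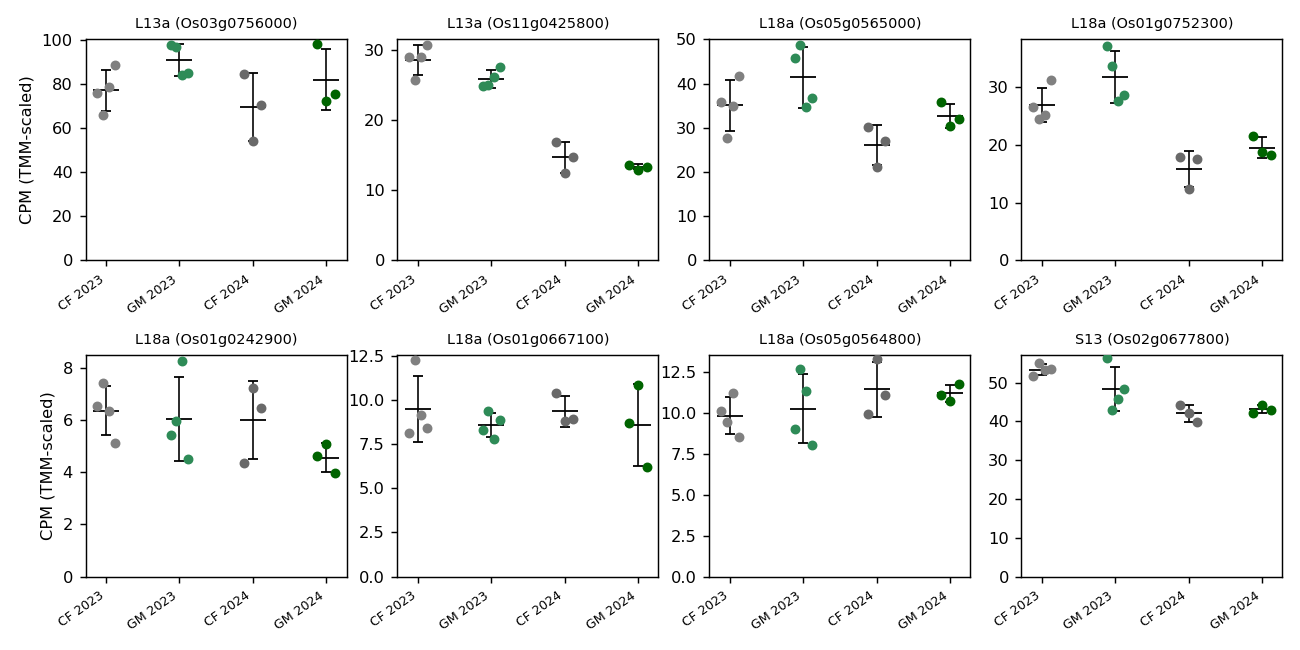
Level in TMM-scaled CPM of 8 members in every library (points) with mean ± SD (bars) by treatment and year; each panel has its own scale starting at 0. L13a gene Os11g0425800 is lower in all 2024 libraries, its partner Os03g0756000 is not, and the 3 L18a-like genes (Os01g0242900, Os01g0667100 and Os05g0564800) have replicate 2 as their highest CF library in 4 of 6 cases.

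Genes that act with the ribosomal proteins gave no treatment calls, where 2.48% of all genes were called in 2023 and 3.25% in 2024, and their year calls are set beside the 39.9% of all genes called within CF and 37.8% within GM. Of 33 tested ribosome biogenesis genes 0 were called between treatments in either year, with medians of 0.03 and 0.14. Within CF 25 were called lower and 1 higher in 2024, together 78.8% of them, with a median of -0.87, and within GM 23 and 1, together 72.7%, with a median of -0.75. Their summed level was 636 ± 38.6 CPM in CF 2023, 636 ± 54.5 in GM 2023, 387 ± 54.2 in CF 2024 and 414 ± 51.8 in GM 2024, and the years did not overlap in either treatment. Of 55 translation factors 0 were called between treatments; 21 were called lower and 8 higher within CF, or 52.7%, and 14 lower and 7 higher within GM, or 38.2%, near the share of all genes. Of 12 RNA polymerase I and III subunits tested in 2023 and 11 in 2024, 0 were called between treatments. Within CF 4 were lower and 1 higher, or 41.7%, near the share of all genes, and within GM 5 were lower and 2 higher, or 58.3%. The words for TOR complex and S6 kinase genes found 4 genes, all described as TORC1 components or Raptor and none as an S6 kinase. Of these 4 genes 0 were called between treatments or within CF, and within GM 2 were higher and 1 lower.

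Few of the other genes described as ribosomal proteins were called between treatments. Of 53 tested genes described as plastid, chloroplast, 30S or 50S, 1 was called in 2023 and 3 in 2024, or 1.89% and 5.66% beside 2.48% and 3.25% of all genes, and each was higher under GM. The gene for the plastid-specific protein PSRP1 (Os03g0856500) was called in both, by 1.53 ± 0.25 in 2023 (adjusted p = 0.0226) and 1.62 ± 0.28 in 2024 (adjusted p = 0.0343), and plastid L21 (Os02g0259600) and S21 (Os02g0189000) were called in 2024, by 0.74 ± 0.15 and 0.52 ± 0.11. Of 9 mitochondrial genes 0 were called. Of the remaining genes, whose descriptions name a ribosomal protein but no compartment, 1 of 95 was called in 2023 and 2 of 94 in 2024, or 1.05% and 2.13%. They were a gene with a bacterial-type S5 domain (Os03g0452300), higher under GM by 0.70 ± 0.16 and 0.42 ± 0.10, and an S20 family gene (Os01g0678600), higher in 2024 by 0.59 ± 0.12. Within CF 24 of the plastid type were called lower and 6 higher in 2024, and within GM 22 and 5, or 56.6% and 50.9%. By direction, 35 of 53 plastid type genes were above 0 under GM in 2023 and 36 in 2024, with medians of 0.11 and 0.12. Of the remaining genes 74 of 95 and 72 of 94 were above 0, with medians of 0.135 and 0.16. Of the 9 mitochondrial genes 7 and 3 were above 0, with medians of 0.08 and -0.005. Whether cytosolic and plastid genes differ in their treatment response was not tested.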

How the data were processed

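Read counts of 14 leaf libraries were taken from the deposited tables, 8 libraries for 2023 and 6 for 2024. The values are counts per locus that the authors deposited unnormalized, per the labels unique exon reads of directional polyA libraries, and per the submitters' processing notes they refer to build IRGSP 1.0. Not given in the sources used here are the aligner, the counter and the strand setting. The file for 2024 has 2 more columns that no label describes; these were left aside. Members, related lists and tests were chosen with earlier results of these data known.

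Genes passing filterByExpr of edgeR 4.0.16 (at least 10 reads, 15 in total) were normalized by TMM and tested by its robust quasi-likelihood fit in R 4.3.3, with Benjamini-Hochberg adjustment over all genes tested and calls at 0.05. Treatments were compared within a year; years and the interaction came from a 4-group fit of all libraries. SE is the size of the log2 fold change over the square root of F. Named are members called between treatments and the 4 highest and lowest fold changes per year at a mean of at least 5 CPM. Added are the 5 nearest the threshold in both years among members with the same direction in both. So are the 3 of each subunit with most reads and the 4 largest year calls per treatment. Members named S6, L10, L24, S27a or acidic P0 to P3 and the 4 families with the widest spread complete the 45 genes. Of these, NMD3 and the L18a-like genes are described with their groups. Alternatives were DESeq2 1.42.0, its size factors, plain totals, no or a 5 CPM filter, the replicate block, each library left out, GM 2023 replicates 1 and 2 left out, a 14-library fit for treatments and a threshold of 0.1. Code was tested on simulated data.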

Additional observations from a re-analysis of the deposited data

Results flagged for a closer look

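Each named member and each summed level was checked in the 2 groups of 4 libraries for 1 library that lies far from the other 3, which gave 5 cases in 96 checks; chance alone gives about 5% of groups. NMD3 (Os10g0573900) was at 56.2 CPM in CF 2023 replicate 4 and between 48.5 and 49.8 CPM in the other CF libraries of that year. S14 (Os02g0534800) was at 45.2 CPM in GM 2023 replicate 2 and between 37.7 and 38.4 CPM in the others. S29 (Os11g0634500) was at 28.6 CPM in the same library and between 22.9 and 23.5 CPM in the others. S2 (Os03g0807800) was at 110.8 CPM in GM 2023 replicate 3 and between 126.0 and 127 CPM in the others. S20 (Os03g0249400) was at 11.6 CPM in GM 2023 replicate 4 and between 6.54 and 7.31 CPM in the others.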

How the results depend on the processing

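The treatment medians stayed above 0 and the year medians below 0 under every alternative run, and every member called between years was lower, except L26 (Os01g0140500), called higher within CF with the replicate block and without CF 2024 replicate 2. Members called in 2024 between treatments numbered 0, but 1 with DESeq2, 1 without the low-count filter, 1 at an adjusted p under 0.1 and 21 with the replicate block. These 21 of 148 members were all higher under GM, beside 1616 of 19261 genes called, a smaller share than among the members. Genes named above that were called with the block were L31, L34, S11 (Os07g0565100), L5, L30, S17, S8, S2 and L9. Their edgeR adjusted p ranged from 0.00531 to 0.0386. It is not known if CF and GM libraries with the same replicate number form pairs. Deviations of such libraries had correlations of -0.10, 0.04, 0.14 and -0.10 (2023, replicates 1 to 4). The 2024 values were 0.31, 0.23 and -0.01 (replicates 1 to 3). No values for libraries with different numbers were set beside them, so they cannot decide the question. The block is therefore not read as a paired test. With it 1616 genes were called in 2024. With plain totals 129 members were called within CF (median -0.78) and 125 within GM (median -0.72), and without GM 2023 replicates 1 and 2 together 11 within GM. With 1 library left out, members called ranged from 0 to 2 in 2023, from 13 to 77 within CF and from 12 to 34 within GM. Calls over all genes then ranged from 6043 to 8352 within CF and from 5733 to 7536 within GM.

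Over all genes the 2023 calls were 835 with DESeq2, 788 without GM 2023 replicates 1 and 2, 723 in the 14-library fit and 149 to 666 with 1 library left out, against 460. The 2024 calls were 1188 with plain totals, 975 without the filter and 162 to 1603 with 1 library left out, against 626, and the interaction gave 0 to 14, against 2. Plain totals turned the balance of higher to lower calls from 302 and 158 to 166 and 515 in 2023, from 364 and 262 to 203 and 985 in 2024, from 3863 and 4045 to 1528 and 9994 within CF and from 3692 and 3789 to 1293 and 10384 within GM.

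Of 71 fold changes of named members, 14 changed sign under another setting, all uncalled treatment contrasts near 0. With plain totals the values for 2023 were -0.026 for L24 Os01g0815800, -0.15 and -0.052 for S11 Os04g0502300 and Os04g0613600, -0.14 for L18a Os05g0564800, -0.18 for L24 Os07g0224000, and -0.14 and -0.017 for S13 Os07g0572900 and Os08g0117300. For 2024 they were -0.21 for P2, -0.19 for S13 Os02g0677800, -0.16 for S11 Os04g0502300, -0.052 for L10 Os05g0169100 and -0.060 for P1. Without GM 2023 replicates 1 and 2 they were 0.013 for L18a Os01g0242900, -0.064 for S11 Os04g0502300, -0.015 for L18a Os05g0564800, -0.18 for L24 Os07g0224000 and 0.031 for L10 Os11g0220800. Without the filter P2 had -0.0028 in 2024, and at 5 CPM it had -0.011 and L24 Os07g0224000 had -0.0019 in 2023. The cause was not tested.

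With 1 library left out, 14 of the 71 changed sign. In 2023 the ranges were -0.27 to 0.041 and -0.21 to 0.0019 for L18a Os01g0242900 and Os01g0667100, -0.056 to 0.15 for L18a Os05g0564800, -0.0062 to 0.072 for S11 Os04g0502300, -0.10 to 0.092 for L24 Os07g0224000, -0.090 to 0.15 for S13 Os07g0572900 and -0.15 to 0.0024 for L10 Os11g0220800. In 2024 they were -0.15 to 0.14 for P2, -0.33 to 0.041 and -0.13 to 0.078 for L18a Os01g0667100 and Os05g0564800, -0.0087 to 0.064 for S13 Os02g0677800, -0.12 to 0.17 for S11 Os04g0502300, -0.26 to 0.12 for S13 Os08g0117200 and -0.28 to 0.0085 for NMD3.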
